A study of Mus musculus with 6 samples.

Results

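The genes described here encode potassium channels, voltage-gated calcium channels and transient receptor potential (TRP) channels of primary mouse mesangial cells, the contractile cells that hold the capillary loops of the glomerulus together. Members were taken by symbol from the RNA-seq table: every gene symbol beginning with Kcn and at least 1 further letter, every Cacna, Cacnb or Cacng gene, and every Trpa, Trpc, Trpm or Trpv gene. Of 19730 rows in the table, 96 matched. A mean of at least 1 FPKM (fragments per kilobase of transcript and per M mapped fragments, M for mega) over the 6 libraries was reached by 23 of the 96, and the other 73 lay under it. One of the 23, Trpc4ap, matched by its name but encodes a protein that binds TRPC4 and is no channel, which left 22 channel or channel subunit genes. Among the 73, Kcnrg, a regulator of Kv channels, is no channel either. The rule used the symbol and the mean over all libraries and not the difference between the groups. A member could still pass through 1 group alone. Kcnip4, Kcnj4 and Kcnk12 had a Control mean under 1 FPKM. Kcnj16, Kcnk5, Trpm6, Cacnb4 and Kcnab3 had a TGF-β1 mean under 1 FPKM. The members nearest the limit were Kcnab3 at a mean of 1.06 FPKM and Trpm6 at 1.03 FPKM on the inside, and Trpm1 at 0.884 FPKM and Trpc1 at 0.592 FPKM on the outside.

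Potassium channels let potassium leave the cell and hold the membrane potential negative. Voltage-gated calcium channels open when that potential falls, and their accessory subunits set how many channels reach the membrane and how they open. TRP channels are cation channels opened by lipids, stretch, heat or receptor signals, and many of them carry calcium. In contractile cells such as mesangial cells and vascular smooth muscle, calcium entry starts contraction and potassium channels oppose it.

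The Control group was compared with cells given TGF-β1 (transforming growth factor beta 1, a secreted factor that drives scarring of the kidney) at 10 ng/ml for 72 h, with 3 libraries in each group. Cells of both groups were at passage 3 to 6 and grew with 20% serum and glucose at 25.5 mM, so the Control cells were also in high glucose. The sources do not say whether the 3 libraries of a group came from separate cultures or animals. If they did not, the p-values measure only a spread between samples that may be technical.

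Library depth, recovered from the step between low FPKM values, was 10.8 to 11.1 M fragments in Control and 10.1 to 10.97 M in TGF-β1 (for an assumed fragment of 200 nt). Replicate 2 of both groups shared a shortfall. In these libraries 46 protein-coding rows were at least 2-fold lower than in all other libraries, against 0 to 4 rows for the other pairings of 1 Control and 1 TGF-β1 library, and 0 of the 46 rows were members. The deviation of TGF-β1 replicate 2 from its group fell with the GC content of the gene (Spearman's rho -0.391 across genes, which are not independent replicates), while it rose in TGF-β1 replicates 1 and 3 (rho 0.271 and 0.318). The highest markers of mesangial cells and pericytes were smooth muscle genes that rose with TGF-β1. Acta2 went from 997 ± 89.7 FPKM in Control (SD, n = 3, as for all such values) to 3887 ± 348 FPKM, and the list of 10 summed to 1718 to 1985 FPKM in Control and 6095 to 7075 FPKM with TGF-β1. With limma 3 of the list were called higher (Acta2, Tagln and Myl9) and 2 lower (Pdgfrb, from 37.5 ± 4.82 to 29.2 ± 0.751 FPKM, and Ptn, from 35.5 ± 2.78 to 1.08 ± 0.650 FPKM), whereas Itga8, Des and Thy1 were under 1 FPKM in every library. All 5 endothelial markers were under 1 FPKM in every library. The part of these markers in the channel values was not tested.

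More of the tested channel genes were lower than higher with TGF-β1. With limma and Benjamini-Hochberg adjustment over all 11898 rows tested, 13 of the 23 members were called changed (56.5%), against 48.1% of all rows tested. Of these, 10 were downregulated (43.5%, against 23.6% of all rows) and 3 were upregulated (13%, against 24.5%), and 10 were not called. The downregulated genes were Kcnj16, Kcnk5, Cacna1a, Kcnh2, Trpv4, Cacnb1, Kcnq5, Trpc2, Trpm6 and Cacng7, and the upregulated genes were Kcnip4, Cacna2d1 and Kcnj4. Of these, Kcnip4 and Kcnj4 passed the limit of 1 FPKM through TGF-β1 alone, and Kcnj16, Kcnk5 and Trpm6 through Control alone. A log2 change of at least 1 was seen in 4 downregulated members (7.38% of all rows were that far down) and in 1 upregulated member (6.56%). The median log2 change over the 23 members was -0.28, and over all rows tested it was -0.02. Control and TGF-β1 libraries did not overlap in 15 of the 23 members (65.2%, against 59.4% of all rows). The members were expressed at a low level, with a median of the mean FPKM of 2.58 against 12.4 for all rows tested. Only 5 members reached 10 FPKM, and 14 of the 23 lay between 1 and 3 FPKM. The shares of all rows moved with the level. In a fit of rows with a mean of at least 3 FPKM, 26.8% were called higher and 22.5% lower. No share was computed for rows between 1 and 3 FPKM. A lean of low rows in general and a lean of the members therefore cannot be told apart. In bulk RNA, fewer cells of a type and less RNA per cell cannot be told apart, and this holds for every difference below.

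**Figure D1:**
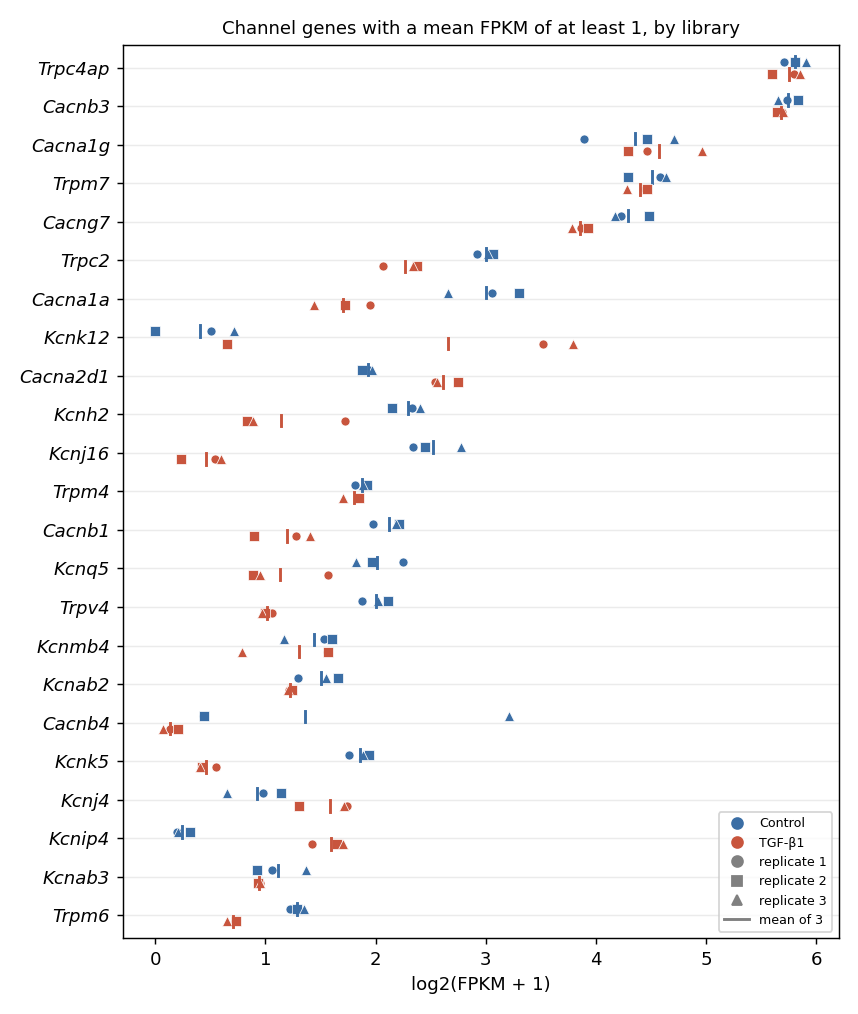
Level of the 23 tested members in each library, as FPKM on a log2(FPKM + 1) axis, with Control and TGF-β1 libraries in separate colours and circles, squares and triangles for replicates 1, 2 and 3. The vertical ticks are group means of the log2(FPKM + 1) values. Kcnj16 and Kcnk5 separate most among the genes that fell, while Kcnk12 and Cacnb4 each have libraries far from the rest of their group.

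The inward rectifiers (Kir) pass potassium more easily into the cell than out of it and set the resting potential. Kcnj16 encodes Kir5.1, a subunit that pairs with other Kir subunits in kidney tubules and elsewhere, and lies on chromosome 11 (mm9, 110829347 to 110889282). It was measured at 4.05, 4.47 and 5.85 FPKM in Control replicates 1 to 3 and at 0.453, 0.173 and 0.513 FPKM with TGF-β1. Every Control library stood above every TGF-β1 library, and the mean was 12.6-fold lower with TGF-β1 (log2 change -2.07, SE 0.17, limma adjusted p = 0.000225). This was the largest fall among the called members. Kcnj4, which encodes the strong rectifier Kir2.3 (chromosome 15, 79314148 to 79335671), moved the other way, with 0.974, 1.21 and 0.571 FPKM in Control against 2.34, 1.47 and 2.28 FPKM with TGF-β1. These values rest on 21, 26 and 12 fragments in Control and on 50, 29 and 48 fragments with TGF-β1. The groups did not overlap, and the log2 change was 0.66 (SE 0.19, limma adjusted p = 0.0302). The call for Kcnj4 was lost without Control replicate 1 (adjusted p = 0.0624), Control replicate 3 (0.0639), TGF-β1 replicate 1 (0.0903) or TGF-β1 replicate 3 (0.0860). It was also lost on rescaling to a common sum of protein-coding rows (adjusted p = 0.0514). The 8 Kir rows together summed to 6.07 ± 0.770 FPKM in Control and 2.77 ± 0.587 FPKM with TGF-β1. Kcnj16 alone, at 4.79 ± 0.945 FPKM in Control and 0.380 ± 0.181 FPKM with TGF-β1, fell by more than this sum. The sum therefore does not show a fall of the Kir genes as a family.

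A tubular gene, a macrophage gene and 3 podocyte genes also fell between the groups. The tubular list, of which 4 of 7 genes had a row, summed to 115 to 148 FPKM in Control and 6.08 to 7.15 FPKM with TGF-β1. Nearly all of that sum was Cdh16, a kidney cadherin, at 130 ± 16.1 FPKM in Control and 6.30 ± 0.564 FPKM with TGF-β1, with Lrp2 at 1.43 ± 0.443 and 0.230 ± 0.0167 FPKM and Aqp2 and Cdh1 under 1 FPKM in every library. Of 5 macrophage genes, 4 had a row, and their sum was 8.19 to 9.58 FPKM in Control and 2.26 to 3.24 FPKM with TGF-β1. That fall rested on Csf1r, at 6.27 ± 0.979 and 0.411 ± 0.156 FPKM, since Cd68, at 2.79 ± 0.836 and 2.22 ± 0.448 FPKM, was not called (limma adjusted p = 0.393), and Ptprc and Itgam were under 1 FPKM in every library. The podocyte list summed to 19.7 to 24.9 FPKM in Control and 12.6 to 13.7 FPKM with TGF-β1. Its tested genes Synpo (12.3 ± 0.644 FPKM in Control), Wt1 (7.88 ± 2.0 FPKM) and Podxl (2.21 ± 0.239 FPKM) were all called lower with TGF-β1, and Nphs1 was under 1 FPKM in every library. The part of these cell type markers in the falls of Kcnj16 and Kcnk5, or of any other member, was not tested.

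The tandem pore domain (K2P) channels carry the background potassium leak. Kcnk5, which encodes an alkali-activated K2P channel of kidney epithelium (chromosome 14, 20959280 to 21001004), was at 2.37, 2.83 and 2.70 FPKM in Control and 0.461, 0.343 and 0.321 FPKM with TGF-β1. The groups were well apart, with 83 to 99 fragments in each Control library and 11 to 16 in each TGF-β1 library, and the mean was 7.02-fold lower with TGF-β1 (log2 change -1.40, SE 0.12, limma adjusted p = 0.000265). Kcnk12, a K2P gene whose product is electrically silent when expressed alone (chromosome 17, 88145177 to 88197334), was at 0.416, 0 and 0.641 FPKM in Control and 10.4, 0.569 and 12.9 FPKM with TGF-β1.

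TGF-β1 replicate 2 lay within the Control range for Kcnk12 and the other TGF-β1 libraries far above it, with 199, 10 and 242 fragments in TGF-β1 replicates 1 to 3. The log2 change was 2.25 (SE 0.82) and the gene was not called (limma adjusted p = 0.0645). Without TGF-β1 replicate 2 the log2 change was 3.25 (adjusted p = 0.000775), and in replicates 1 and 3 alone it was 3.05 (adjusted p = 0.00253). With replicate 2 of both groups as a batch term, the adjusted p was 0.0152, and with the trend of each library with GC content removed it was 0.00337 (log2 change 2.58), the last being chosen after seeing the data. The fits without TGF-β1 replicate 2, or with a term for replicate 2, remove or absorb the library that stood apart. Their calls are therefore no separate support for a rise of Kcnk12. Kcnk12 had the highest GC content of the 22 tested members with a value, 70.2%. The part of replicate 2 and of GC content in the Kcnk12 values was not tested further. Because of this gene, the 10 K2P rows summed to 3.72 ± 0.266 FPKM in Control and 9.22 ± 6.39 FPKM with TGF-β1.

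Voltage-gated potassium (Kv) channels open on depolarisation and return the membrane to rest. Both tested pore-forming Kv genes fell. Kcnh2, which encodes the ERG channel that repolarises the heart (chromosome 5, 23825407 to 23857422), was at 4.03, 3.44 and 4.27 FPKM in Control and 2.29, 0.776 and 0.849 FPKM with TGF-β1. The groups did not overlap, TGF-β1 replicate 1 was the highest of its group, and the log2 change was -1.15 (SE 0.25, limma adjusted p = 0.0113). In replicates 1 and 3 alone the Kcnh2 log2 change was -1.06 and was not called (adjusted p = 0.0658). Kcnq5, a subunit of the slow M-type current (chromosome 1, 21388484 to 21952023), went from 3.06 ± 0.628 FPKM in Control to 1.24 ± 0.620 FPKM with TGF-β1 (log2 change -0.88, SE 0.22, limma adjusted p = 0.0185). TGF-β1 replicate 1, at 1.96 FPKM, was again above the other TGF-β1 libraries but under the lowest Control library, at 2.53 FPKM. The call for Kcnq5 was lost without Control replicate 1 (adjusted p = 0.0590), TGF-β1 replicate 2 (0.0523) or TGF-β1 replicate 3 (0.0600), and in replicates 1 and 3 alone (0.105).

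The largest rise among the called members was in an accessory gene. Kcnip4 encodes a calcium-binding protein that assembles with A-type Kv4 channels (chromosome 5, 48780743 to 49915940), and was at 0.147, 0.245 and 0.151 FPKM in Control and 1.68, 2.14 and 2.25 FPKM with TGF-β1. No library overlapped between the groups, and the mean was 11.2-fold higher with TGF-β1 (log2 change 1.35, SE 0.14, limma adjusted p = 0.000487). Of its partners, Kcnd2 was listed at 0 in all TGF-β1 libraries and Kcnd1 stayed under 1 FPKM in every library, with 0.580 ± 0.201 FPKM in Control and 0.489 ± 0.122 FPKM with TGF-β1. The β subunits of Kv1 channels were not called. Kcnab2 was at 1.84 ± 0.357 FPKM in Control and 1.33 ± 0.0308 FPKM with TGF-β1 (log2 change -0.28, SE 0.13, limma adjusted p = 0.130). The groups did not overlap for Kcnab2, and without Control replicate 1 it was called (log2 change -0.38, adjusted p = 0.0440). Kcnab3 was at 1.19 ± 0.360 and 0.925 ± 0.0136 FPKM (log2 change -0.17, 95% interval -0.54 to 0.20). The 34 Kv rows together, pores and accessory subunits, summed to 13.3 ± 0.109 FPKM in Control and 8.57 ± 1.21 FPKM with TGF-β1.

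A short stretch of promoter is shown for 4 members whose Control and TGF-β1 libraries did not overlap and whose promoter held a motif searched, so that the sequences can be read beside the values. They were chosen after the values were seen. RefSeq promoters (GRCm38.p6, windows of 300 bases reaching from upstream to just past a start) were found for 74 of the 96 members, 19 of them tested, and a gene could have several. The motif TGANTCA takes in the AP-1 sites TGACTCA and TGAGTCA and is wider than them. It was searched on both strands. TGANTCA was in 7.808% of all 32851 promoters in the set and in 4 of the 109 promoters of members, each of a different gene. The motif bound by serum response factor, the CArG box, was in 1.629% of all promoters and in 2 of the 109. The Smad motif GTCTAGAC was in 0.213% of all promoters and in 0 of the 109. The windows are written 5′ to 3′ along the gene's strand, with the motif in capitals. They lie at chr5:49285723-49285752 (minus strand) for Kcnip4, chr1:189344300-189344329 (minus strand) for Kcnk2, chr9:8544010-8544039 (plus strand) for Trpc6 and chr11:73233943-73233972 (plus strand) for Trpv1.
Kcnip4, TGANTCA: tgcttacatgcTGATTCAttgatgagctgg
Kcnk2, TGANTCA: ccatcctccccTGACTCAgtcatacagttc
Trpc6, CArG box: cctttcgatcCCTTTAAAGGtggggatcgt
Trpv1, CArG box: ctgtgagagtCCTTTAAAGGagctacttcc
The windows are matches of letters only. Kcnip4 was the only 1 of the 19 tested members with TGANTCA, and 0 of the 19 held the CArG box. The form in Kcnip4, TGATTCA, is neither of the AP-1 sites named above. The other member promoters with TGANTCA were those of Kcnip3 and Trpv3. These positions are on another genome build than the mm9 positions given for genes.

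Calcium-activated potassium (KCa) channels couple a rise in calcium to potassium efflux. One KCa gene passed the limit of 1 FPKM. Kcnmb4, a β subunit of the large-conductance (BK) channel, was at 1.73 ± 0.426 FPKM in Control and 1.55 ± 0.710 FPKM with TGF-β1 and was not called (log2 change -0.13, 95% interval -0.75 to 0.48). Kcnmb4 shares up to 693 nt of exon with 4933400F03Rik on the other strand. Another BK subunit gene, Kcnmb1, lay under the limit over all libraries but had a larger fold between the group means than any called member. Kcnmb1 encodes the β1 subunit, which raises the calcium sensitivity of the BK channel in smooth muscle (chromosome 11, 33863013 to 33873641). It was at 0.0227, 0 and 0.0465 FPKM in Control and 0.822, 0.767 and 0.926 FPKM with TGF-β1. These values amount to 1, 0 and 2 fragments in Control and 36, 31 and 40 fragments with TGF-β1, so that all TGF-β1 libraries stood above all Control libraries. Pooled over the libraries of a group and scaled by depth, the ratio was 36.7 (95% exact Clopper-Pearson interval 12.2 to 181, which covers counting error only). Fitted without a limit on the mean, Kcnmb1 had a log2 change of 0.84 (SE 0.06) on the log2(FPKM + 1) scale, which understates changes of low genes, and a limma adjusted p of 0.000309. Kcnma1, which encodes the pore of the same channel, was at 0.153 ± 0.0504 FPKM in Control and 0.0769 ± 0.0685 FPKM with TGF-β1 and was not called in that fit (log2 change -0.10, adjusted p = 0.313). Kcnn4, the intermediate-conductance channel of fibroblasts and lymphocytes, rose from 0.157 ± 0.0544 to 0.586 ± 0.140 FPKM in the same fit (log2 change 0.45, limma adjusted p = 0.00994). Its lowest TGF-β1 library, at 0.449 FPKM, was above its highest Control library, at 0.212 FPKM. Kcnn3, a small-conductance channel, was at 0.527 ± 0.125 and 0.285 ± 0.0979 FPKM, with no overlap between the groups and no call (log2 change -0.25, limma adjusted p = 0.0967). The 10 rows grouped as KCa by symbol, Kcnt2 and Kcnu1 among them, summed to 3.57 ± 0.249 FPKM in Control and 4.20 ± 1.0 FPKM with TGF-β1. The grouping by symbol does not mean that calcium opens each of these channels.

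**Figure D2:**
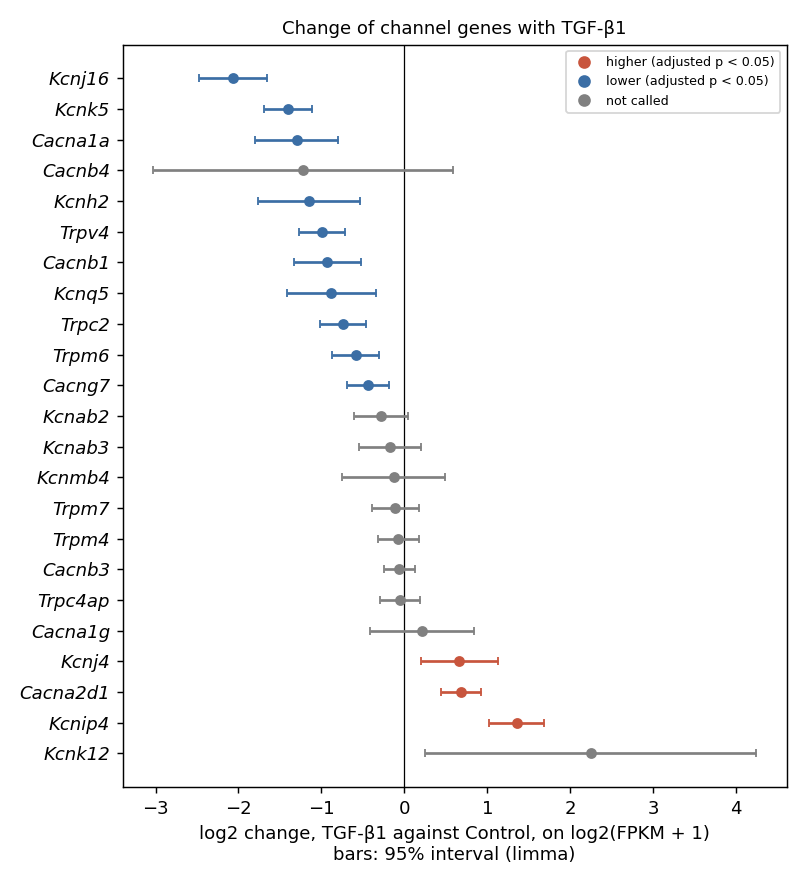
Log2 change of each of the 23 tested members, TGF-β1 against Control, on the log2(FPKM + 1) scale, with 95% intervals from limma as bars. Called members are coloured by direction and the 10 members not called are grey. The 10 members called lower run from Kcnj16 at -2.07 to Cacng7 at -0.44, the 3 called higher lie between 0.66 and 1.35, and the intervals of Kcnk12 and Cacnb4 are the widest.

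Of the pore-forming subunits of voltage-gated calcium channels, Cacna1g and Cacna1a were tested, and only Cacna1a was called. Cacna1g, which encodes the T-type pore Cav3.1 (chromosome 11, 94269705 to 94335414), was at 13.9, 21.1 and 25.2 FPKM in Control and 21.0, 18.6 and 30.2 FPKM with TGF-β1. Per length of transcript its mean over the 6 libraries, 21.7 FPKM, was the highest of the pore genes, just above Trpm7 at 21.0 FPKM. In Control alone the mean of Trpm7 was higher (21.8 against 20.1 FPKM). The groups overlapped, and Cacna1g was not called (log2 change 0.21, 95% interval -0.42 to 0.84, limma adjusted p = 0.528). Cacna1a, which encodes the P/Q-type pore known from nerve terminals (chromosome 8, 86912339 to 87164145), was at 7.31, 8.85 and 5.29 FPKM in Control and 2.85, 2.30 and 1.71 FPKM with TGF-β1. The groups did not overlap, and the log2 change was -1.30 (SE 0.21, limma adjusted p = 0.0031). The transcript named in the Cacna1a row is annotated as a retained intron of 1150 nt among 11 transcripts of the gene, and the gene overlaps Gm16183 on the other strand, so the value may not stand for the coding mRNA. Without Cacna1a, Kcnk12, Cacnb4 and Trpc4ap, a choice made after seeing the data, 12 members were called, 3 higher and 9 lower. The L-type pore Cacna1c, the main calcium channel of smooth muscle, was at 0.0543 ± 0.0189 FPKM in Control and 0.0670 ± 0.0642 FPKM with TGF-β1 and was not called in the fit without a limit (adjusted p = 0.851). The L-type pore Cacna1d was listed at 0 in all TGF-β1 libraries, with 0.0539 ± 0.0214 FPKM in Control (limma adjusted p = 0.158). Cacna1d shares 518 nt of exon with Chdh on the other strand. Without Control replicate 1 Cacna1d was called (adjusted p = 0.0416).

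The β subunits sit on the inside of the pore and bring it to the membrane. Cacnb3 was the highest channel subunit of all members per length (chromosome 15, 98462651 to 98474961), at 52.3, 55.9 and 49.3 FPKM in Control and 50.7, 49.0 and 51.0 FPKM with TGF-β1. The groups overlapped (log2 change -0.06, 95% interval -0.24 to 0.13, limma adjusted p = 0.551). Rescaling to a common sum of protein-coding rows, which lowered the median change of all rows by 0.17 on the log2 scale, gave a log2 change of -0.25 for Cacnb3 and a call (adjusted p = 0.0391). Cacnb1 fell from 3.37 ± 0.381 to 1.32 ± 0.407 FPKM (chromosome 11, 97862822 to 97884348), with no overlap between the groups (log2 change -0.93, SE 0.17, limma adjusted p = 0.00483). Cacnb4 was at 0.346, 0.358 and 8.24 FPKM in Control and 0.0961, 0.156 and 0.0487 FPKM with TGF-β1, so that its Control mean of 2.98 FPKM rested on replicate 3. Its log2 change was -1.22 (SE 0.75) and was not called (limma adjusted p = 0.222), and without Control replicate 3 it was -0.30 (adjusted p = 0.0867). Of 10791 tested protein-coding rows 300 nt or longer, 3 stood at least 10-fold above both other Control libraries in replicate 3, and Cacnb4 was 1 of them. The gene shares 1433 nt of exon with A430018G15Rik on the other strand.

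The other calcium channel subunits moved in opposite directions. Cacna2d1, which encodes the α2δ1 subunit that carries channels to the surface and binds gabapentin (chromosome 5, 15440509 to 15880329), was at 2.85, 2.68 and 2.92 FPKM in Control and 4.80, 5.71 and 4.87 FPKM with TGF-β1. All TGF-β1 libraries were higher (log2 change 0.68, SE 0.10, limma adjusted p = 0.0023). Cacng7, a member of the γ family that acts mainly on AMPA receptors in brain (chromosome 7, 3333055 to 3367810), was at 17.8, 21.3 and 17.1 FPKM in Control and 13.5, 14.2 and 12.8 FPKM with TGF-β1. Every TGF-β1 library was lower (log2 change -0.44, SE 0.10, limma adjusted p = 0.0151). The call for Cacng7 was lost without TGF-β1 replicate 1 (adjusted p = 0.0513) or TGF-β1 replicate 3 (0.0558), and with the trend with GC content removed (log2 change -0.25, adjusted p = 0.174). Of 5 neuron markers only Syt1 had a row, and it reached at most 0.308 FPKM in any library. A missing row does not mean that a gene was not expressed. The paper lists Tubb3, a marker without a row here, among genes that moved to a higher expression rank with TGF-β1. The 16 calcium channel rows summed to 109 ± 8.90 FPKM in Control and 96.6 ± 6.00 FPKM with TGF-β1. The groups overlapped, with Control replicate 1 at 98.6 FPKM and TGF-β1 replicate 3 at 103 FPKM. Without Cacnb4, a choice made after seeing the data, the sums were 106 ± 8.44 and 96.5 ± 6.05 FPKM.

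Of the 5 tested TRP channel genes, 3 fell and 0 rose, where 23.6% of all rows were called lower and 24.5% higher. Trpv4, an osmosensitive and stretch-sensitive calcium channel (chromosome 5, 115072161 to 115108430), was at 2.67, 3.32 and 3.06 FPKM in Control and 1.08, 0.999 and 0.962 FPKM with TGF-β1. The groups were far apart relative to their spread, with a mean 2.98-fold lower with TGF-β1 (log2 change -0.99, SE 0.11, limma adjusted p = 0.000815). Trpc2, known from the pheromone-sensing neurons of the nose (chromosome 7, 109214025 to 109245378), went from 7.01 ± 0.410 to 3.82 ± 0.543 FPKM (log2 change -0.74, SE 0.11, limma adjusted p = 0.0028). The gene has 20 annotated transcripts, and which of them the fragments came from was not tested. Trpm6, a magnesium channel of the distal tubule and colon (chromosome 19, 18824473 to 18967000), was at 1.34, 1.44 and 1.54 FPKM in Control and 0.650, 0.657 and 0.571 FPKM with TGF-β1. Its groups did not overlap (log2 change -0.58, SE 0.12, limma adjusted p = 0.0077), on 93 to 105 fragments per Control library and 39 to 45 per TGF-β1 library. As for Kcnj16 and Kcnk5, the tubular marker Cdh16 fell beside Trpm6, and its part was not tested.

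The TRP channel gene with the highest level per length was Trpm7, a channel fused to a kinase that carries magnesium in most cells. Trpm7 (chromosome 2, 126617301 to 126701966) was at 23.0, 18.6 and 23.9 FPKM in Control and 20.8, 21.1 and 18.5 FPKM with TGF-β1. The groups overlapped and the gene was not called (log2 change -0.11, 95% interval -0.39 to 0.17). Trpm4, a calcium-activated channel for monovalent cations, was at 2.66 ± 0.145 and 2.49 ± 0.196 FPKM and was not called either (log2 change -0.07, 95% interval -0.32 to 0.17). Trpc4ap, which is no channel, was at 51.3, 54.9 and 59.0 FPKM in Control and 54.7, 47.4 and 56.9 FPKM with TGF-β1, with overlapping groups (log2 change -0.06, 95% interval -0.30 to 0.18). The 16 TRP channel rows summed to 38.8 ± 1.54 FPKM in Control and 30.6 ± 1.73 FPKM with TGF-β1, with every TGF-β1 library under every Control library.

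**Figure D3:**
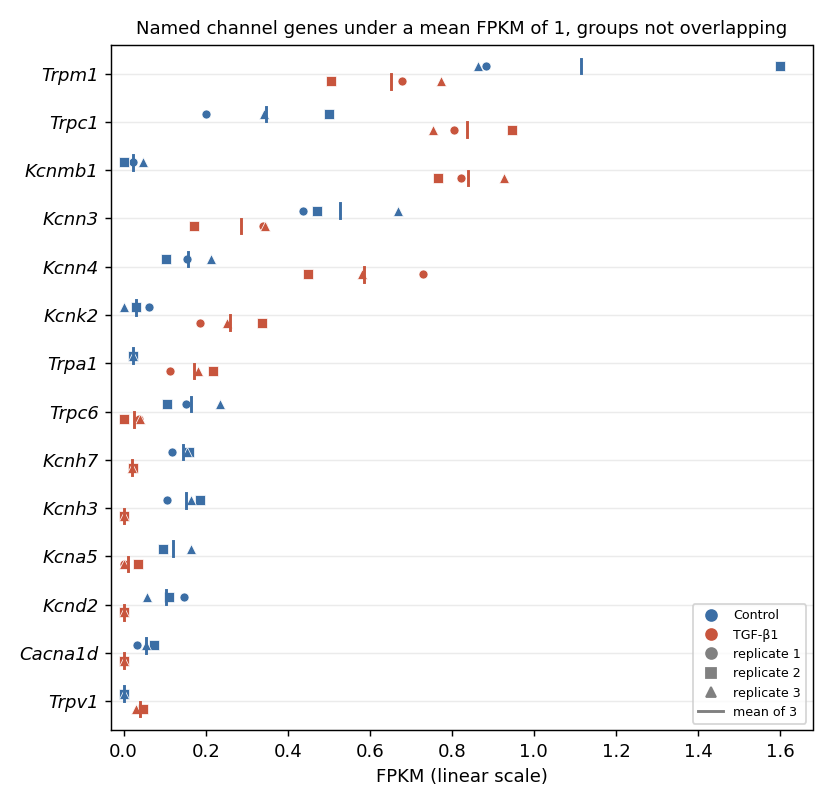
FPKM in each library of 14 members named in the text, out of the 17 under a mean of 1 FPKM whose Control and TGF-β1 libraries did not overlap, with separate colours for the groups and circles, squares and triangles for replicates 1, 2 and 3. Of the 14, 6 were higher and 8 lower with TGF-β1, and Kcnmb1 shows the widest gap, from at most 0.0465 FPKM in Control to at least 0.767 FPKM with TGF-β1.

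Most of the family was at the edge of detection. Of the 73 members under a mean of 1 FPKM, 60 were under 0.5 FPKM in every library and 16 were above 0 in a single library. Without a limit on the mean, limma called 9 of the 73 (12.3%, against 11.7% of all rows under 1 FPKM). Groups did not overlap in 17 of the 73 (23.3%, against 20.9%). The shares among members were thus close to those of all low rows. Upregulated in that fit were Kcnmb1, Kcnn4, Trpc1, Kcnk2 and Trpa1, and downregulated were Kcnh3, Kcnh7, Kcna5 and Trpc6. Of these 9, Kcnk2, Trpa1, Kcnh7, Kcna5 and Trpc6 were named after their values were seen.

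Trpc1, which forms receptor-operated and store-operated channels with other TRPC subunits, was at 0.200, 0.501 and 0.342 FPKM in Control and 0.807, 0.947 and 0.755 FPKM with TGF-β1. The groups did not overlap (log2 change 0.45, limma adjusted p = 0.0214). The call for Trpc1 was lost without Control replicate 3 (adjusted p = 0.0631), TGF-β1 replicate 1 (0.0656), TGF-β1 replicate 2 (0.0644) or TGF-β1 replicate 3 (0.0522). Trpc6, a diacylglycerol-gated channel of podocytes and smooth muscle whose CArG window is printed above, was at 0.165 ± 0.0663 FPKM in Control and 0.0259 ± 0.0225 FPKM with TGF-β1 (log2 change -0.18, limma adjusted p = 0.04995, just under the threshold). The call for Trpc6 was lost without Control replicate 1 (adjusted p = 0.0920), TGF-β1 replicate 1 (0.0990), TGF-β1 replicate 2 (0.116) or TGF-β1 replicate 3 (0.0937).

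Kcnk2, a stretch-activated K2P channel, was at 0.0308 ± 0.0308 and 0.258 ± 0.0753 FPKM (log2 change 0.29, limma adjusted p = 0.0141). Trpa1, the irritant receptor of sensory nerves, was at 1 fragment in each Control library and 5, 9 and 8 fragments with TGF-β1. Pooled and scaled by depth this is a ratio of 7.55 (95% exact interval 2.27 to 39.4, counting error only), with a limma adjusted p of 0.0253. Kcna5, a Kv1 channel of heart and vascular muscle, had 11 fragments over the Control libraries and 1 over the TGF-β1 libraries, a ratio of 10.7 (95% exact interval 1.55 to 460, counting error only), with a limma adjusted p of 0.0489. At these depths the size of each ratio is poorly fixed, and neither call held with every library left out in turn. The Trpa1 call was lost without Control replicate 1 (adjusted p = 0.0526), Control replicate 2 (0.0540) or TGF-β1 replicate 3 (0.0602). The Kcna5 call was lost without Control replicate 2 (adjusted p = 0.0511), TGF-β1 replicate 1 (0.101), TGF-β1 replicate 2 (0.0507) or TGF-β1 replicate 3 (0.0955). Replicate 2 as a batch term also ended the Kcna5 call (adjusted p = 0.0763). With the trend with GC content removed, neither Kcna5 (log2 change -0.06, adjusted p = 0.378) nor Trpa1 (log2 change 0.12, adjusted p = 0.0933) was called. Kcnh7, a channel of the ERG family like Kcnh2, was at 0.144 ± 0.0230 and 0.0215 ± 0.000917 FPKM (log2 change -0.16, limma adjusted p = 0.0199). Kcnh7 shares 696 nt of exon with Gca on the other strand. In replicates 1 and 3 alone none of Kcnk2 (adjusted p = 0.0754), Kcnh7 (0.0518), Trpa1 (0.0929), Kcna5 (0.0817) and Trpc6 (0.0823) was called. Without the variance trend the calls of Kcnh7 (adjusted p = 0.0573), Trpa1 (0.0529), Kcna5 (0.107) and Trpc6 (0.0867) were lost as well.

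An FPKM of exactly 0 may be a failed estimate, so members at 0 are described only as listed. Trpv1, the capsaicin receptor, was listed at 0 in all Control libraries and at 0.0426, 0.0462 and 0.0310 FPKM with TGF-β1. Cacna1d, Kcnd2 and Kcnh3 were listed at 0 in all TGF-β1 libraries and above 0 in all Control libraries. A share of 3.8% of all rows under 1 FPKM was listed at 0 in one group and above 0 in all libraries of the other, and here it was 5 of 73. Kcnh3, a Kv channel of the forebrain, was the called one, at 0.107, 0.187 and 0.165 FPKM in Control (limma adjusted p = 0.0138). The Kcnh3 call was lost in replicates 1 and 3 alone (adjusted p = 0.0621) and with the trend with GC content removed (0.665). Kcnd2, a pore of the A-type current to which KCNIP4 binds, had 8, 6 and 3 fragments in Control and 0 in each TGF-β1 library, and was not called (limma adjusted p = 0.0525). Without Control replicate 3, Kcnd2 was called (adjusted p = 0.0105), as it was with a pseudocount of 0.1 (0.0279) or 0.5 (0.0446), on rescaling to a common sum (0.0437) and with the trend with GC content removed (0.0135). Trpm1, the light-response channel of retinal bipolar cells, was the highest of the low members at 1.11 ± 0.420 FPKM in Control and 0.652 ± 0.136 FPKM with TGF-β1, with no overlap and no call (limma adjusted p = 0.167).

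The remaining low members with a group mean of at least 0.5 FPKM were Cacng4, Kcnt2, Kcnrg, Kcnh6 and Trpv2, beside Kcnd1 above. Their groups overlapped and none of the 5 was called in the limma fit over all rows, with adjusted p-values from 0.174 for Kcnh6 to 0.579 for Trpv2. Kcnh6 was at 0.709 ± 0.262 FPKM in Control and 0.378 ± 0.147 FPKM with TGF-β1. Without Control replicate 3 it was called (adjusted p = 0.0490). Kcnrg, at 0.645 ± 0.210 and 0.391 ± 0.323 FPKM, was called lower in replicates 1 and 3 alone (log2 change -0.55, adjusted p = 0.0465). The Trpv2 mean of 0.681 FPKM in Control rested on replicate 2, at 1.21 FPKM against 0.443 and 0.392 FPKM in the other Control libraries. All 62 rows of potassium channel genes together summed to 26.6 ± 0.900 FPKM in Control and 24.8 ± 7.26 FPKM with TGF-β1. TGF-β1 replicates 1 and 3, at 29.6 and 28.2 FPKM, were above every Control library, and replicate 2, at 16.4 FPKM, was under them. Without Kcnk12, a choice made after seeing the data, the sums were 26.3 ± 0.740 and 16.8 ± 2.09 FPKM, with no overlap between the groups.

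The other genes of calcium signalling and ion transport came from a list of 84 symbols. Of 46 tested, 26 were called (56.5%, against 48.1% of all rows), 13 higher and 13 lower, with a median log2 change of 0.12. On the log2(FPKM + 1) scale, 6 genes were higher by at least 1 and 4 were lower by at least 1. Fam38b, which encodes the mechanically gated channel PIEZO2, rose from 9.08 ± 0.493 FPKM in Control to 63.6 ± 5.70 FPKM (log2 change 2.68, limma adjusted p = 1.13e-05). Atp2b4, a calcium pump of the plasma membrane, rose from 0.583 ± 0.0534 FPKM in Control to 7.87 ± 1.04 FPKM (log2 change 2.48, limma adjusted p = 3.36e-05). A second pump of that family, Atp2b1, fell from 36.6 ± 1.30 FPKM in Control to 14.3 ± 1.49 FPKM (log2 change -1.30, limma adjusted p = 0.000133), so that the pump genes moved in opposite directions.

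Genes of calcium stores were likewise divided. Jph2, which ties the store to the surface membrane in muscle, rose from 2.63 ± 0.467 FPKM in Control to 8.67 ± 1.02 FPKM (log2 change 1.42). Stim2, a calcium sensor of the store, rose from 17.4 ± 2.74 FPKM in Control to 37.0 ± 3.18 FPKM (log2 change 1.05). Its relative Stim1 fell from 10.3 ± 1.52 FPKM in Control to 5.10 ± 0.355 FPKM (log2 change -0.89), and Orai1, the channel that STIM1 opens, fell from 22.9 ± 2.94 FPKM in Control to 15.4 ± 0.824 FPKM (log2 change -0.54). Stim1 and Orai1 lie under a log2 change of 1 in size on the log2(FPKM + 1) scale and were named after their values were seen. Itpr1, a release channel of the store, fell from 10.4 ± 0.731 FPKM in Control to 4.55 ± 0.421 FPKM (log2 change -1.04). These 5 genes were called by limma, with adjusted p-values from 0.000369 for Itpr1 to 0.00763 for Orai1. Other genes of the list were also named after their values were seen. Atp2a2, a calcium pump of the store, rose from 30.8 ± 3.72 FPKM in Control to 51.4 ± 5.05 FPKM (log2 change 0.73, limma adjusted p = 0.00327). Orai3 fell (log2 change -0.49, limma adjusted p = 0.00653). Orai2 and the other release channel genes, Itpr2 and Itpr3, were not called (limma adjusted p = 0.608, 0.443 and 0.0797). With the trend with GC content removed, Orai1 was not called (log2 change -0.28, adjusted p = 0.266).

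Of the calcium-dependent messengers, Nfatc1, a transcription factor freed by calcineurin, rose from 3.61 ± 0.271 FPKM in Control to 8.97 ± 1.14 FPKM (log2 change 1.11), and Rcan2, a calcineurin regulator, fell from 8.26 ± 1.46 FPKM in Control to 2.21 ± 0.406 FPKM (log2 change -1.53). Atp1b1, the β1 subunit of the sodium pump, fell from 39.8 ± 1.83 FPKM in Control to 17.6 ± 1.39 FPKM (log2 change -1.14). For these 3 genes the limma adjusted p-values ran from 0.000167 for Atp1b1 to 0.000491 for Nfatc1. The sodium-calcium exchanger gene Slc8a1 was at 0.965, 1.55 and 462 FPKM in Control and 0.114, 0.165 and 0.232 FPKM with TGF-β1. A single Control library, replicate 3, carried nearly all of its signal, the same library in which Cacnb4 stood apart, and Slc8a1 was not called (limma adjusted p = 0.204). Without Control replicate 3 it was called, with a log2 change of -0.94 (adjusted p = 0.00771).

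**Figure D4:**
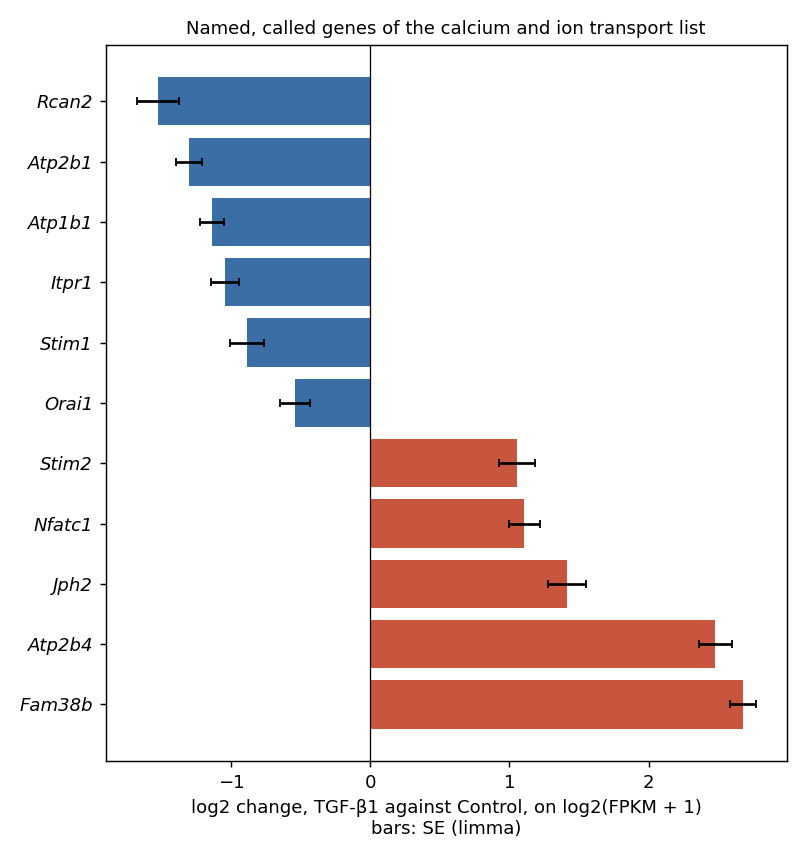
Log2 change, TGF-β1 against Control on the log2(FPKM + 1) scale, of 11 of the genes named in the text, out of the 26 called in the calcium signalling and ion transport list, with bars for 1 SE. The 5 higher and 6 lower genes run from Rcan2 at -1.53 to Fam38b at 2.68.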

How the data were processed

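RNA from 3 Control and 3 TGF-β1 libraries was sequenced on the Illumina HiSeq platform. The authors mapped reads to mm9 with TopHat (TopHat2 2.0.11 in the submitters' processing notes) and estimated FPKM with Cufflinks. The deposited values are FPKM, and whether strand was used is not given in the sources used here. Each row names 1 transcript and 1 symbol, and whether it holds the gene or the transcript is not stated. Groups came from the labels, and every sample column was matched (0 left over).

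From these values log2(FPKM + 1) was computed, and rows with a mean of at least 1 FPKM (11898 of 19730) were fitted with limma 3.58.1 in R 4.3.3 (lmFit, eBayes with a mean-variance trend, two-sided, Benjamini-Hochberg adjustment over all rows). A member was called at an adjusted p under 0.05. Low members were fitted without the limit. The log2(FPKM + 1) scale understates changes of low genes. The script was tested on simulated data. No count model was run, since only FPKM were used and most genes have several transcripts. Depth came from low FPKM values of single-transcript protein-coding rows, 99.2 to 99.8% of which were whole multiples of 1 fragment within 0.05, and fragments are given for single-transcript members only.

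All tested members were named. Members called with a log2 change of at least 1, and the 5 highest, were given in every library. Low members were named when a group mean reached 0.5 FPKM, or when listed at 0 throughout one group and above 0 throughout the other. Genes of the calcium list were named when called with a log2 change of at least 1. Other names are marked in the text, and a few genes that these rules take are not reported here. The members and lists were chosen with earlier results of these data known. Gene positions are 1-based on mm9 from GENCODE M1, which held 19699 of the row identifiers, and 143 annotated symbols match the rule, 47 of them without a row here. Alternatives were the pseudocount, the limit on the mean, the scaling, the variance trend, the threshold, the replicate block, replicate 2 as a batch term or left out, each library left out, and, added after seeing the data, GC correction and the exclusion of 4 uncertain rows.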

Additional observations from a re-analysis of the deposited data

How the results depend on the processing

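The count of called members depended on the limit on the mean. Without a limit 22 of 96 members were called, 8 of them higher, where 30.5% of all rows were called and 14.6% were higher. With a mean of at least 3 FPKM 4 of 9 were called, 1 higher and 3 lower, and the median log2 change of the 9 was -0.059. In that fit 49.3% of all rows were called, 26.8% higher and 22.5% lower. These fits test other sets of genes by construction. At an adjusted p under 0.01, 17 genes of the calcium and ion transport list were called. Leaving out 1 library at a time gave 10 to 13 called members, 2 to 4 higher and 8 to 10 lower, a median log2 change of -0.38 to -0.27 and 19 to 26 called list genes. Rescaling to a common sum gave 2 higher and 11 lower members, with the median log2 change of all rows at -0.187. Removal of the GC trend gave 4 higher and 8 lower. Among the alternatives, shares of all rows were computed only for the limits on the mean. Counts under every other setting, here and above, stand without such a share and are not read as a result about the members. The fit with the GC trend removed tested 22 members, since Cacna1a had no GC value.

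Genes not called changed sign in places. In replicates 1 and 3 alone the log2 change was 0.0040 for Cacnb3, 0.020 for Trpc4ap, 0.058 for Trpv2, 0.087 for Kcnd1 and -0.043 for Cacna1c. With the GC trend removed it was 0.15 for Cacnb3, 0.14 for Kcnmb4 and 0.081 for Trpm4. Leaving out 1 library gave ranges of -0.019 to 0.39 for Cacna1g, -0.11 to 0.02 for Trpc4ap, -0.27 to 0.13 for Kcnmb4, -0.27 to 0.061 for Trpv2, -0.16 to 0.017 for Kcnd1 and -0.031 to 0.053 for Cacna1c. The cause was not tested. Of the recomputed log2 changes of named genes, 877 kept their direction and side of the threshold, 59 lost the call, 16 gained one and 14 changed sign.

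Samples with the same number correlated at 0.0921, 0.232 and 0.0853 in their deviations from the group means. Of the pairings of different numbers, Control replicate 1 with TGF-β1 replicate 3 was at 0.117 and the rest ran from -0.194 to -0.0160. Replicate 2 of both groups also shared the shortfall described above. Whether the numbers mark pairs was not settled. The main fit had no block, and the block was an alternative. With the replicate number as a block, 13 members were called, 3 higher and 10 lower, with 22 list genes. Under that block Kcnj4 was not called (adjusted p = 0.0653) and Kcnk12 was (0.0282). Among the low members the calls of Kcna5 (0.115), Kcnh7 (0.0680), Trpa1 (0.0649) and Trpc6 (0.0701) were lost under the block. No other single gene followed across the alternatives changed its call under it. Atp2a2, Orai2, Orai3, Itpr2 and Itpr3 were not followed across them. Depth, at 10.1 to 11.1 M fragments, limits the low members, most of all those with short transcripts. Trpm6, of 6508 nt and a mean of 1.03 FPKM, had 39 to 105 fragments per library. A shorter transcript has fewer at the same FPKM. Groups of 3 limit every p-value.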
